A study of Mus musculus with 8 samples.

Results

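The genes of the cytosolic ribosomal proteins were followed in Runx1 knockout and wild-type mouse embryos. A probe set was taken as belonging to the family when its single platform gene symbol was Rpl or Rps with a number, or Rpsa, Rplp0, Rplp1 or Rplp2. Pseudogenes, S6 kinases and the like-genes whose symbols carry an l after the number were left out. The rule gave 95 probe sets of 43 genes, 22 of the large and 21 of the small subunit, among 18193 genes with a probe set of their own. Each gene was represented by the probe set with the highest mean log2 intensity. A further 110 ribosomal protein probe sets carried several gene symbols and were not used for the values below. They cover 42 genes, of which 27 are not among the 43.

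Affymetrix mouse 430 2.0 arrays were hybridized with total RNA of whole embryo propers from 4 groups, namely Runx1 knockout and wild-type embryos at embryonic day 12 (E12) and the same genotypes at embryonic day 8.5 (E8.5). All mice were on a BALB/c background, and each group had 2 arrays of biological replicates. Which part of Runx1 the knockout allele removes is not stated. Whether embryos were combined for an array is not stated, and the whole embryo mixes all tissues, so fewer cells of a type and less RNA per cell cannot be told apart. Stage differences ask how the family stood later against earlier in development, and genotype differences ask whether it moved without Runx1.

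Ribosomes are built from a small subunit, which reads the mRNA, and a large subunit, which joins the amino acids and lets the new chain leave through its exit tunnel. Most of these proteins are present once per ribosome, and their genes are among the most highly expressed in dividing cells. Their mRNAs usually begin with a C followed by a run of pyrimidines, the TOP motif, through which growth signals via mTOR control their translation. In humans, loss of 1 copy of several of these genes causes Diamond-Blackfan anaemia, a failure of red-cell production.

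Across the 8 arrays the median log2 intensity was 5.16 to 5.20 at E12 and 4.96 to 5.01 at E8.5. The upper end of the arrays differed more, with a 99th percentile of 10.51 to 11.09 at E12 and 12.24 to 12.30 at E8.5. Marker lists set some arrays apart. At E8.5, replicate 1 of the wild type averaged 10.88 (log2) over 4 trophoblast markers, where the remaining 3 arrays of that stage gave 6.32 to 7.11. Replicate 2 of the same group averaged 8.64 over 8 red-cell markers, where the remaining 3 gave 6.78 to 7.09. Yolk sac endoderm and liver markers (6 genes) averaged 7.26 to 7.61 at E12 and 10.85 to 11.38 at E8.5. They did not move together. In knockout their differences, E12 minus E8.5, ran from -9.23 to 6.46, with 5 called lower and 1 higher. In wild type they ran from -9.04 to 5.75, with 4 called lower and 1 higher. The 6 megakaryocyte and platelet markers averaged 4.85 and 4.83 in E12 knockout embryos, against 7.38 and 7.48 in E12 wild type. Their part in the results below was not tested. Runx1 itself has 6 probe sets. In the brightest of them the knockout arrays gave 7.10 and 6.86 at E12 and 6.41 and 6.86 at E8.5, where wild-type arrays gave 7.06 and 6.39 at E12 and 6.16 and 5.95 at E8.5. Where its probes lie relative to the disruption is not known here, so this checks nothing about the genotype labels.

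The start sites of the family are shown because the TOP motif is its best known shared feature. RefSeq start windows of build GRCm38.p6 (250 bases before and 50 after the start that lies farthest 5′) were found for 38 of the 43 genes. Among these, 8 (21.1%) began at the annotated start with a C followed by at least 4 further C or T, against 2.48% of 27025 genes with a window. Printed are 30 bases before and the first 20 bases of the transcript, and capitals mark the run of C and T from the start.
Rpl14 (chr9:120571487-120571536, plus strand): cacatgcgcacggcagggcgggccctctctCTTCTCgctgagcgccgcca
Rpl35 (chr2:39005112-39005161, minus strand): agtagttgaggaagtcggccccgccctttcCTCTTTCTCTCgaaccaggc
Rpl38 (chr11:114668550-114668599, plus strand): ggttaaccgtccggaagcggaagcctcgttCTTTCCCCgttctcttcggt
Rplp2 (chr7:141447621-141447670, plus strand): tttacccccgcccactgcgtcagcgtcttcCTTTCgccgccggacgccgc
Rps10 (chr17:27635225-27635274, minus strand): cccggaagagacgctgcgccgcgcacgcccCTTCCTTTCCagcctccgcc
Rps18 (chr17:33955646-33955695, minus strand): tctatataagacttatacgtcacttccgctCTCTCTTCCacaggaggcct
Rps27 (chr3:90213629-90213678, minus strand): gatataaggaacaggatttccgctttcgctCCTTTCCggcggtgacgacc
Rps6 (chr4:86857348-86857397, minus strand): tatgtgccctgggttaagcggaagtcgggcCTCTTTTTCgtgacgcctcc
In the other 30 genes the annotated start did not carry this motif, and RefSeq starts can lie some bases from the start a cell uses. A pair of them, with large stage differences, is printed for comparison, and having no such run both are wholly in lower case.
Rps15 (chr10:80292401-80292450, plus strand): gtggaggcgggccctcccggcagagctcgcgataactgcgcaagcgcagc
Rpl37a (chr1:72711230-72711279, plus strand): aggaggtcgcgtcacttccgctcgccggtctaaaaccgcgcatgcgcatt

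Within 15 bases of the start on either side, 16 of the 38 genes (42.1%) had an unbroken run of at least 8 C and T, against 11.8% of all genes. Across the whole 300-base window, read on both strands, the letters CCGGAA, the core of the ETS factor motif, stood in 23 genes (60.5%), against 15.2% of all genes. The letters GCCATNTT, part of the YY1 motif, stood in 5 (13.2%, against 6.20%), and CACGTG, the E-box bound by MYC, in 3 (7.89%, against 7.24%). TGTGGT, a form of the RUNX motif, stood in 4 (10.5%, against 16.9%). The paper writes the RUNX site as TGT/cGGT, and the form TGCGGT was not searched, so these shares do not cover all RUNX sites. TATAAA on the sense strand stood in 4 (10.5%, against 8.88%). Such matches describe the letters of these windows and do not show that a factor binds there.

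Ribosomal protein genes were among the brightest on every array. In knockout embryos the median member stood at 11.39 and 11.58 (log2 intensity) at E12, against 12.95 and 13.30 at E8.5. Among wild-type embryos it stood at 11.00 and 11.79 at E12, against 13.11 and 13.33 at E8.5. Between 26 and 28 members at E12 and between 26 and 32 at E8.5 lay in the top 1% of 45037 probe sets (451 probe sets) of their array. Each member stands by its brightest probe set, which favours a high place, and the 45037 were not chosen in this way. By mean level the 5 brightest were Rps3 (13.38), Rps29 (13.37), Rpl7a (13.28), Rps7 (13.25) and Rpsa (13.14). Rps3 and Rpsa lie in the small subunit, and Rpsa is the gene mutated in human congenital asplenia. Signals of different probe sets are not calibrated to each other, so this order does not rank the genes' mRNA. The 5 dimmest probe sets belonged to Rps16 (3.28), Rps27 (7.06), Rpl39 (7.12), Rpl27a (7.51) and Rps6 (8.0). Rps16, whose protein is part of every small subunit, read between 3.23 and 3.36 on all arrays, at percentiles of 3.03 to 5.6. The order of the 43 genes was alike between arrays, with Spearman's rho of 0.85 to 1.00 over the 28 pairs of arrays (a description across genes that share their probes).

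**Figure D1:**
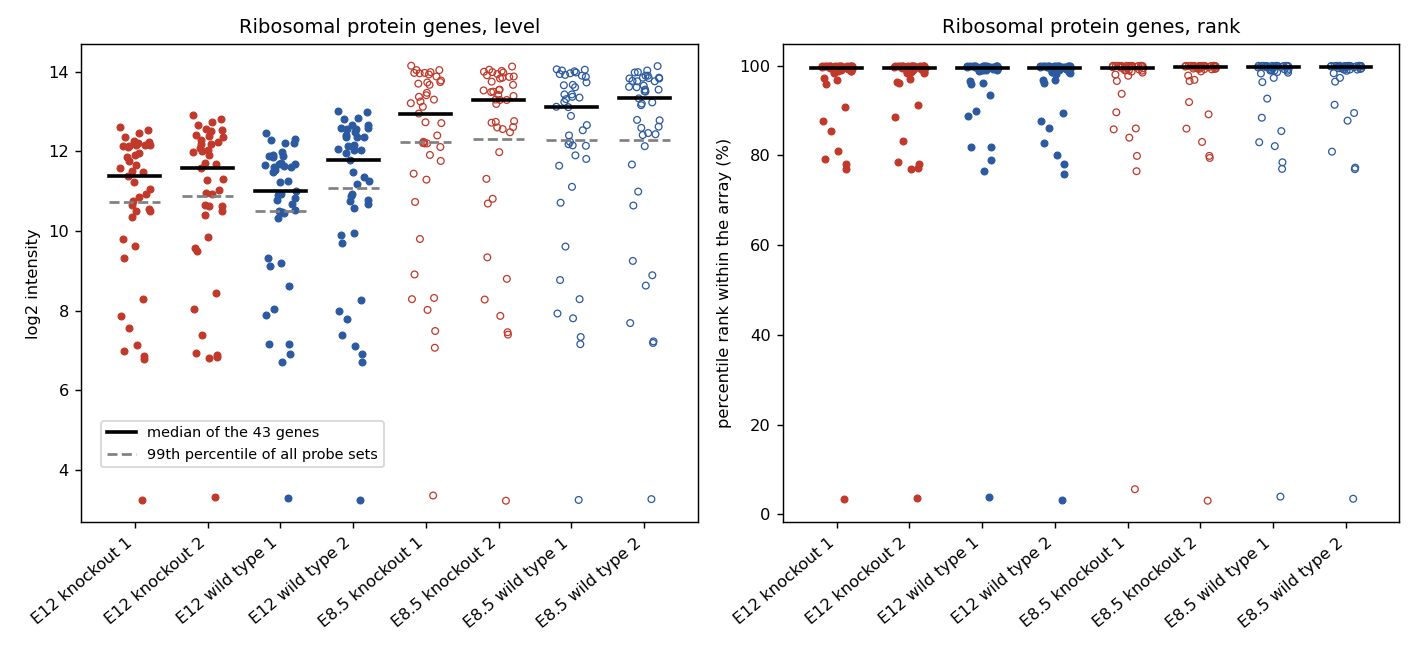
Log2 intensity (left) and percentile rank within the array (right) of the 43 ribosomal protein genes in each array, filled points for E12 and open points for E8.5, red for knockout and blue for wild type, with the median as a black bar and the 99th percentile of all probe sets as a dashed line. The median level is 11.00 to 11.79 at E12 and 12.95 to 13.33 at E8.5, while the median rank is 99.45 to 99.56 at E12 and 99.55 to 99.72 at E8.5, and the single point near the bottom is Rps16.

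In wild-type embryos nearly the whole family read lower at E12 than at E8.5. On the deposited scale, 41 of the 43 genes were lower, with a median log2 difference of -1.59 (3.01-fold lower), beside a median of -0.01 over all 18193 genes. With limma, 37 were lower at an adjusted p below 0.05 and 0 higher, where 19.6% of all genes were called lower and 14.8% higher. The large subunit had 20 of 22 genes called (median -1.61) and the small subunit 17 of 21 (median -1.55). Without E12 wild type replicate 1 the count was 27, and with the 4 wild-type arrays fitted alone it was 5 at the same median. After quantile normalization, which gives all 8 arrays one distribution, the median was -0.13 and 3 genes were called.

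Rpl14, a large subunit protein, read 8.05 and 7.80 in E12 wild type, against 9.61 and 10.99 in E8.5 wild type. It had the lowest difference of the family, -2.38 (SE 0.50, limma adjusted p = 0.0159). The groups did not overlap, and the E8.5 arrays differed from each other by 1.38. Rpl37a, a zinc-binding protein of the large subunit, read 10.48 and 10.57 in E12 wild type, against 12.15 and 13.50 in E8.5 wild type. Its difference was -2.30 (SE 0.50, limma adjusted p = 0.0179), again with an E8.5 replicate 2 well above replicate 1. Rps15, which the small subunit needs to leave the nucleus, read 10.52 and 10.68 in E12 wild type, against 11.81 and 13.85 in E8.5 wild type. Its difference of -2.23 (SE 0.74) did not pass the test (limma adjusted p = 0.0662), though it did with limma-trend (adjusted p = 0.0419). The gap between the E8.5 arrays was 2.04, and the E8.5 knockout arrays differed by 1.63 in the same direction.

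Rps25, a small subunit protein that viral internal ribosome entry sites depend on, gave tighter replicates. It read 9.32 and 9.90 in E12 wild type, against 11.64 and 11.67 in E8.5 wild type, a difference of -2.05 (SE 0.22, limma adjusted p = 0.00255). Rps24, a Diamond-Blackfan anaemia gene in humans, read 9.21 and 9.94 in E12 wild type, against 11.11 and 12.13 in E8.5 wild type (-2.04, SE 0.42, limma adjusted p = 0.0153). Rps3a1, of the small subunit, read 10.94 and 12.04 in E12 wild type, against 13.37 and 13.55 in E8.5 wild type. It fell by 1.97 (SE 0.34, limma adjusted p = 0.00916), and its E12 arrays were 1.10 apart. The lowest adjusted p among the 43 was that of Rps14, the small subunit gene lost in human 5q- syndrome, which read 11.00 and 11.26 in E12 wild type, against 12.66 and 12.78 in E8.5 wild type (-1.59, SE 0.17, limma adjusted p = 0.00254).

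At the other end stood members that changed little. Rps6, the small subunit protein phosphorylated by the S6 kinases, read 7.90 and 7.99 in E12 wild type, against 7.93 and 7.69 in E8.5 wild type (0.14, SE 0.16, limma adjusted p = 0.575). Rps16, near the bottom of the arrays, differed by 0.01 (limma adjusted p = 0.975). Rpl37, a zinc-binding protein of the large subunit, read 8.61 and 8.27 in E12 wild type, against 8.29 and 8.89 in E8.5 wild type (-0.15, SE 0.27, limma adjusted p = 0.720). Rps27 (-0.23, limma adjusted p = 0.466) and the X-linked exit tunnel gene Rpl39 (-0.37, limma adjusted p = 0.111) also missed the threshold. All 5 are among the 7 dimmest members. Rps19, the gene most often mutated in human Diamond-Blackfan anaemia, is bright and yet moved less than most. It read 11.91 and 12.42 in E12 wild type, against 13.24 and 12.79 in E8.5 wild type, and fell by 0.85 (SE 0.24, limma adjusted p = 0.0422).

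In knockout embryos the family was lower at E12 to a like extent. All 43 genes were lower, with a median of -1.58 (2.99-fold lower), beside 0.01 over all genes. With limma, 36 were called lower and 0 higher, where 18.3% of all genes were called lower and 13.8% higher. The count depended on the arrays kept. With the 4 knockout arrays fitted alone it was 39, where 10832 of 45037 probe sets were called lower. The 4 wild-type arrays fitted alone gave 5, where 1269 of 45037 were. With 1 array left out the knockout median stayed between -1.69 and -1.45. The wild-type and knockout log2 differences between the stages have no array in common. Their SEs do, because the main model was fitted to the arrays of both genotypes together and gave each gene the same SE in both. The calls in wild type and knockout are thus not independent of each other. The difference between the stage effects of wild type and knockout was tested by the interaction term given with the genotype comparisons.

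Rpl14 again had the lowest value of the family, at 7.57 and 7.38 in E12 knockout, against 9.80 and 10.81 in E8.5 knockout (-2.83, SE 0.50, limma adjusted p = 0.00997). Rpl37a followed at -2.17 (limma adjusted p = 0.0235). Rpl12, which lies at the base of the stalk that recruits translation factors, read 6.98 and 6.94 in E12 knockout, against 8.91 and 9.34 in E8.5 knockout. Its difference was -2.16 (SE 0.23, limma adjusted p = 0.00249), the lowest adjusted p of the 43 in knockout. Rpl27, another human Diamond-Blackfan anaemia gene, read 10.34 and 10.41 in E12 knockout, against 12.21 and 12.74 in E8.5 knockout (-2.10, SE 0.26, limma adjusted p = 0.00365). Rplp2, an acidic protein of the stalk, read 11.39 and 11.58 in E12 knockout, against 13.37 and 13.75 in E8.5 knockout (-2.08, SE 0.24, limma adjusted p = 0.00304). Rps15 was at -2.08 but missed the threshold (limma adjusted p = 0.0855), as it did in wild type.

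The members with the smallest stage differences in knockout were those of wild type. Rps16 was at -0.01, Rpl37 at -0.19, Rps6 at -0.32 (limma adjusted p = 0.193) and Rps27 at -0.41 (limma adjusted p = 0.200). Rpl39 read 6.78 and 6.90 in E12 knockout, against 7.49 and 7.40 in E8.5 knockout, and fell by 0.61 (SE 0.15, limma adjusted p = 0.0265). Rps19 was at -0.68, on the other side of the threshold from wild type (limma adjusted p = 0.0841). Rpl27a, whose mouse mutant shows ataxia and dark feet, was at -0.97 in knockout (limma adjusted p = 0.0597) and -1.30 in wild type (limma adjusted p = 0.0224).

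**Figure D2:**
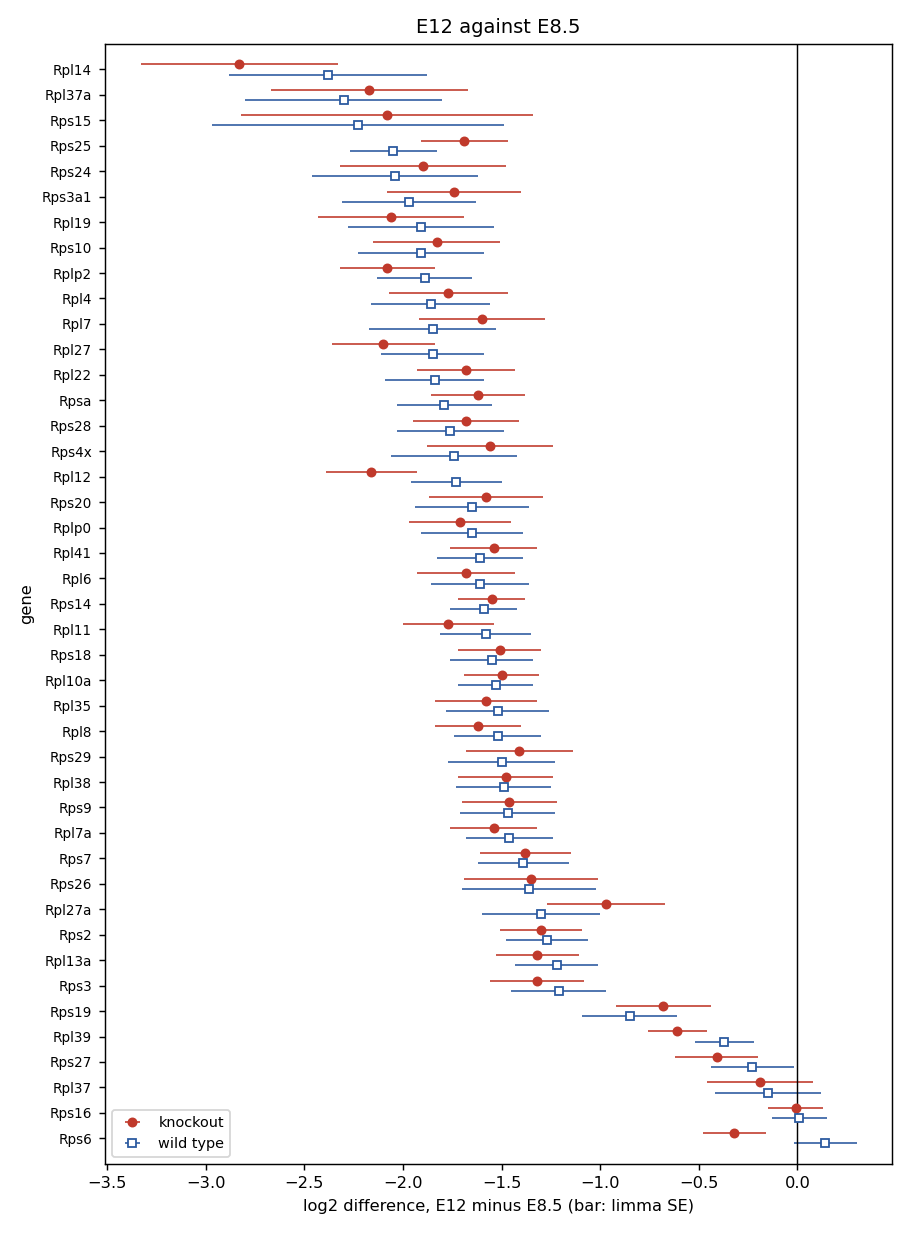
Log2 difference of each of the 43 genes, E12 minus E8.5, with limma's SE as bars, red circles for knockout and blue squares for wild type, ordered by the wild-type value. Most genes lie between -2.4 and -1.2 in both genotypes on the deposited scale, and the 6 at the bottom, Rps19, Rpl39, Rps27, Rpl37, Rps16 and Rps6, lie closer to 0 or above it in wild type, while after quantile normalization the wild-type median is -0.13.

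The stage difference depended on how the arrays were scaled. The whole upper end of the E12 arrays lay lower, and the brightest probe set read 13.41 to 13.64 at E12, against 14.83 to 14.94 at E8.5. The 3′ control probe set of actin read 12.02 to 12.87 at E12, against 14.04 to 14.14 at E8.5. That of GAPDH read 11.67 to 12.42, against 13.71 to 13.89, so a fall on this scale was not particular to the family. The family's median stood above its array's 99th percentile by 0.49 to 0.70 at E12, against 0.71 to 1.05 at E8.5. The members' share of the array's summed intensity was 1.78% to 2.09% at E12, against 2.75% to 3.15% at E8.5. With the arrays shifted to the same median, the median of all genes was -0.20 in each genotype, and the members' was -1.79 in knockout and -1.78 in wild type. With a shift to the same 75th percentile, all genes had 0.28 in knockout and 0.30 in wild type, and the members -1.31 and -1.28. Between 35 and 38 members were called under these shifts. With the same median, 8228 of 45037 probe sets were called lower in knockout and 8993 in wild type. With the same 75th percentile the counts were 4863 and 5199.

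Ranks within the array carry no scale. The median percentile of the family was 99.45 to 99.56 at E12, against 99.55 to 99.72 at E8.5, or place 198 to 247 from the top at E12, against 127 to 205 at E8.5. Per gene the median rank difference, E12 minus E8.5, was -0.071 percentile points in knockout (35 of 43 lower) and -0.078 in wild type (31 of 43 lower), beside 0.56 and 0.77 over all genes. Near the top of an array a rank can hardly move, so a small rank difference does not show an equal level. On ranks limma called 1 member in wild type, where 19.3% of all genes were called, and 2 in knockout, where 17.0% were.

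Quantile normalization left a few members apart from the rest. On this scale a gene that keeps its rank reads the same, so a small difference does not show an equal level. In wild type the median was -0.13, and 3 genes were called, 2 lower and 1 higher, where 9.37% of all genes were called lower and 15.2% higher. Rpl12 fell by 1.04 (SE 0.22, limma adjusted p = 0.0215) and Rps25 by 0.79 (SE 0.18, limma adjusted p = 0.0258) on this scale, while Rps6 rose by 0.82 (SE 0.16, limma adjusted p = 0.0165). In knockout the median was -0.17 and 2 genes were called lower, where 8.79% of all genes were called lower and 12.6% higher. They were Rpl12 (-1.57, SE 0.22, limma adjusted p = 0.00715) and Rpl14 (-2.01, SE 0.50, limma adjusted p = 0.0383). Rpl12 and Rpl14 also moved most in rank, by -11.8 and -11.0 percentile points in knockout and -7.52 and -6.98 in wild type. On the rank scale Rpl12 was called in both genotypes (limma adjusted p = 0.0164 in knockout and 0.0469 in wild type) and Rpl14 in knockout (limma adjusted p = 0.0418). Rps6 stood 2.29 points higher in knockout and 6.30 in wild type, and Rpl37 3.42 and 4.08, none of them called on ranks.

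Stage differences varied with the brightness of the probe set. The 23 members at a mean log2 intensity of 12 or more had a median difference of -1.58 in knockout and -1.61 in wild type. The 88 other genes in that range had -1.49 and -1.50. Between 8.5 and 12 the 13 members had -1.77 in knockout and -1.85 in wild type, against -1.07 and -1.08 for 2803 other genes. The 7 members below 8.5 had -0.41 and -0.23, against 0.12 and 0.09 for 15259 other genes. The brightest members thus differed between the stages about as much as other genes of their brightness. Members of the middle and lowest ranges fell by more than the other genes there. These differences were not tested, and brightness was not matched within a range.

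Where a gene had several probe sets, they mostly moved together. Of 22 such genes with 74 probe sets, 17 had every probe set lower at E12 in wild type, and 68 of the 74 were lower. A dimmer probe set of Rps3 went the other way. It read 7.30 and 6.36 in E12 wild type, against 4.55 and 4.60 in E8.5 wild type (2.25, SE 0.32, limma adjusted p = 0.00511), while the brightest Rps3 probe set fell by 1.21. A dim probe set of Rps24 read 6.95 and 6.57 in E12 wild type, against 5.23 and 5.54 in E8.5 wild type (1.38, SE 0.21, limma adjusted p = 0.00621), while 5 others of that gene were lower. The second Rps6 probe set rose by 0.58 (limma adjusted p = 0.0346) at a mean level of 3.83. The files do not give which transcripts these dim probe sets detect.

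The stage differences were also read by the members' roles, on the deposited scale, where 18.3% of all genes were called lower in knockout and 19.6% in wild type. All 3 stalk genes measured, Rplp0, Rplp2 and Rpl12, were called lower in both genotypes, with medians of -2.08 in knockout and -1.73 in wild type. Rpl11, which joins the 5S rRNA and can bind Mdm2, read 10.55 and 10.63 in E12 knockout, against 12.11 and 12.61 in E8.5 knockout (-1.77, limma adjusted p = 0.00429), and was at -1.58 in wild type (limma adjusted p = 0.00552). Of the 4 exit tunnel genes measured, Rpl4, Rpl22, Rpl35 and Rpl39, 4 were called in knockout and 3 in wild type. Of the 10 measured Diamond-Blackfan anaemia genes, 8 were called in knockout (median -1.55) and 9 in wild type (median -1.54). Of 8 genes with known mouse mutants, 5 were called in knockout and 7 in wild type, among them Rpl38, the gene of the Tail short mouse, which acts on translation of Hox mRNAs (-1.48 in knockout, limma adjusted p = 0.00755, and -1.49 in wild type, limma adjusted p = 0.00687). After quantile normalization these lists held few calls. The median of the Diamond-Blackfan anaemia genes was then -0.19 in knockout and -0.13 in wild type, with 0 called. That of the mouse mutant genes was -0.03 in knockout with 0 called, and 0.00 in wild type with 1 called, Rps6, which was higher. Rpl38 was then at 0.02 in knockout and 0.05 in wild type. The X-linked Rps4x read 12.25 and 12.55 in E12 knockout, against 13.97 and 13.94 in E8.5 knockout (-1.56, limma adjusted p = 0.0157).

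Genes with a C and pyrimidine run at the annotated start had stage differences near those of the other members. Their median was -1.54 in knockout and -1.54 in wild type (8 genes), beside -1.59 and -1.61 for the 30 genes with another start, a difference that was not tested. Fau, whose fusion product yields a small subunit protein and which the symbol rule does not take in, read 11.36 and 11.52 in E12 wild type, against 12.69 and 12.68 in E8.5 wild type (-1.24, limma adjusted p = 0.00929). After quantile normalization Fau was at 0.08 in knockout and 0.34 in wild type, not called. With the probe sets of several symbols added, a choice made after seeing the data, 69 of 70 ribosomal protein genes were called lower in wild type and 68 of 70 in knockout. These probe sets can share signal with pseudogenes. Of the 18193 genes with a probe set of their own, 19.6% were called lower in wild type and 18.3% in knockout.

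Other parts of the translation machinery were lower at E12 too, and some were lower still. Among all genes 18.3% were called lower in knockout and 19.6% in wild type. By sign alone, called or not, 2467 of the 2803 other genes at a mean log2 intensity between 8.5 and 12 were lower in knockout and 2419 in wild type. The list counts that follow are of genes called. Of 33 ribosome assembly genes, 30 were called lower in each genotype, with medians of -2.15 in knockout and -2.08 in wild type. Tsr1, needed for small subunit maturation, read 8.59 and 9.29 in E12 wild type, against 12.72 and 12.83 in E8.5 wild type (-3.84, limma adjusted p = 0.000867). Ncl, which encodes nucleolin, was at -3.21 (limma adjusted p = 0.00590), and Fbl, the rRNA methyltransferase fibrillarin, at -1.61 (limma adjusted p = 0.00538). Of 15 RNA polymerase I genes, 9 were called lower in knockout (median -1.22) and 10 in wild type (median -1.38), with Polr1e at -2.61 (limma adjusted p = 0.000824) in wild type. Of 76 mitochondrial ribosomal protein genes, 59 were called lower in knockout (median -1.43) and 58 in wild type (median -1.40).

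Factors whose mRNAs also carry TOP motifs (16 genes) had medians of -1.56 in knockout and -1.57 in wild type, with 10 called lower in each. The elongation factor genes Eef1b2 (-1.73, limma adjusted p = 0.00341) and Eef1d (-1.88, limma adjusted p = 0.00297) were among them in wild type. Of 19 initiation factor genes, 11 were called lower in each genotype. They included Eif4ebp1, the inhibitor of cap-dependent translation that mTOR controls (-3.02, limma adjusted p = 0.00125, in wild type). For both lists the shares of all genes called lower were 18.3% in knockout and 19.6% in wild type. After quantile normalization the lists stood apart more. Ribosome assembly genes had medians of -1.16 in knockout and -1.08 in wild type. Of them 18 and 19 were called lower, where 8.79% and 9.37% of all genes were. RNA polymerase I genes had -0.78 and -0.83, mitochondrial ribosomal proteins -0.68 and -0.55, and the cytosolic family -0.17 and -0.13. The cytosolic family lay near the top of each array (median percentile 99.45 to 99.72), and a gene that keeps its rank reads the same after quantile normalization. Its small differences on that scale thus do not show an equal level. These lists were not tested against each other.

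**Figure D3:**
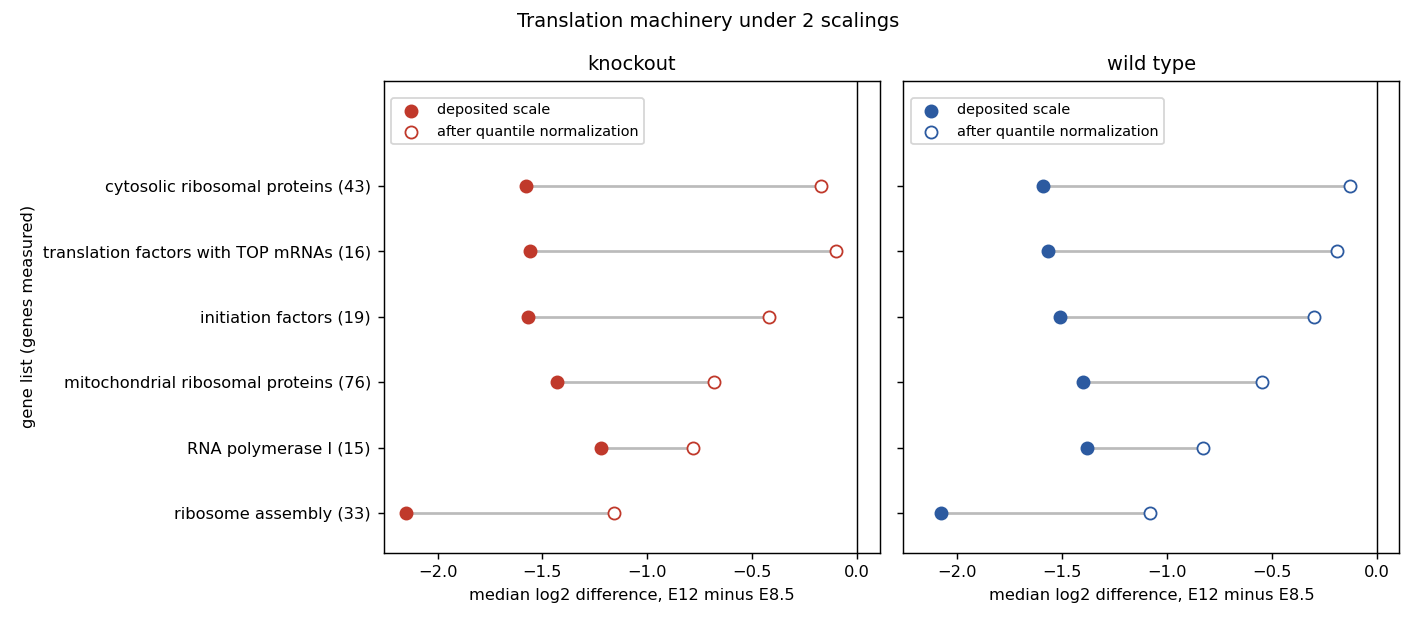
Median log2 difference, E12 minus E8.5, of the cytosolic ribosomal protein genes and of 5 other lists of the translation machinery (genes measured in brackets), in knockout (left) and wild type (right), filled points on the deposited scale and open points after quantile normalization. The cytosolic family moves from -1.58 to -0.17 between the scales in knockout and from -1.59 to -0.13 in wild type, while ribosome assembly genes are at -1.16 and -1.08 after quantile normalization. A gene that keeps its rank reads the same on the quantile scale, so a small difference there does not show an equal level.

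No ribosomal protein gene passed the test for a difference between Runx1 knockout and wild-type embryos. At E12 the median difference, knockout minus wild type, was 0.02, with 25 genes higher and 18 lower and values between -0.45 and 0.34. With limma 0 of 43 were called (adjusted p of 1 for each), where 0.0275% of all genes were, 0 had an unadjusted p below 0.05, and 0 lay past the study's threshold of an absolute t of 3, where 0.973% of all genes did. At E8.5 the median was 0.01, with 26 higher and 17 lower and values between -0.28 and 0.48. With limma 0 were called (adjusted p of 1 for each, 0% of all genes called), 1 had an unadjusted p below 0.05 (Rps6), and 0 lay past an absolute t of 3, where 2.31% of all genes did. The change of the knockout effect between the stages had a median of 0.01, and 0 were called (0.0110% of all genes).

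At E12 the lowest knockout differences belonged to Rpl14 and Rpl12. Rpl14 read 7.57 and 7.38 in knockout, against 8.05 and 7.80 in wild type (-0.45, SE 0.50). Rpl12 read 6.98 and 6.94 in knockout, against 7.17 and 7.39 in wild type (-0.32, SE 0.23). In both the 2 groups did not overlap, yet the differences were within 2 SE. Rpl19 (-0.23), Rplp2 (-0.22), Rpl11 (-0.21) and Rpl27 (-0.16), all of the large subunit, followed. The groups did not overlap in 6 members that were lower, namely Rpl11, Rpl12, Rpl14, Rpl19, Rpl39 and Rps15, where 18.6% of all genes were lower without overlap. These were also the only members without overlap in either direction, 6 of 43 beside 30.6% of all genes, and 2186 of the 18193 genes were higher without overlap.

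The highest E12 differences rested on 1 array. Rpl7 read 11.51 and 11.72 in knockout, against 10.78 and 11.79 in wild type (0.34, SE 0.32), so wild type replicate 1 stood alone below the rest. Rps3a1 (0.28), the X-linked Rps4x (0.23), Rpl22 (0.20), Rps24 (0.16) and Rpl41 (0.14), the smallest ribosomal protein, were next, and each turned below 0 without that array. Without it the family's median was -0.24, and without wild type replicate 2 it was 0.26. Within the arrays numbered 1 and 2 the median was 0.20 and -0.15.

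At E8.5 Rps6 stood highest. It read 8.29 and 8.28 in knockout, against 7.93 and 7.69 in wild type, a difference of 0.48 (SE 0.16), with no overlap. Its second probe set, close to the bottom of the arrays, differed by 0.09. Rpl39 (0.16), Rps3 (0.13), Rpl12 (0.12), Rps27 (0.09) and Rpl6 (0.09) followed. The lowest was Rps25, with 11.44 and 11.31 in knockout, against 11.64 and 11.67 in wild type (-0.28, SE 0.22). Rpl27a was at -0.28, Rps15 at -0.26, Rps10 at -0.19, Rps19 at -0.18 and Rpl37a at -0.08, and their arrays overlapped. The groups did not overlap in 1 member that was lower (Rps25) and 3 that were higher (Rpl39, Rpl7a and Rps6), beside 15.6% of all genes lower and 13.5% higher.

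**Figure D4:**
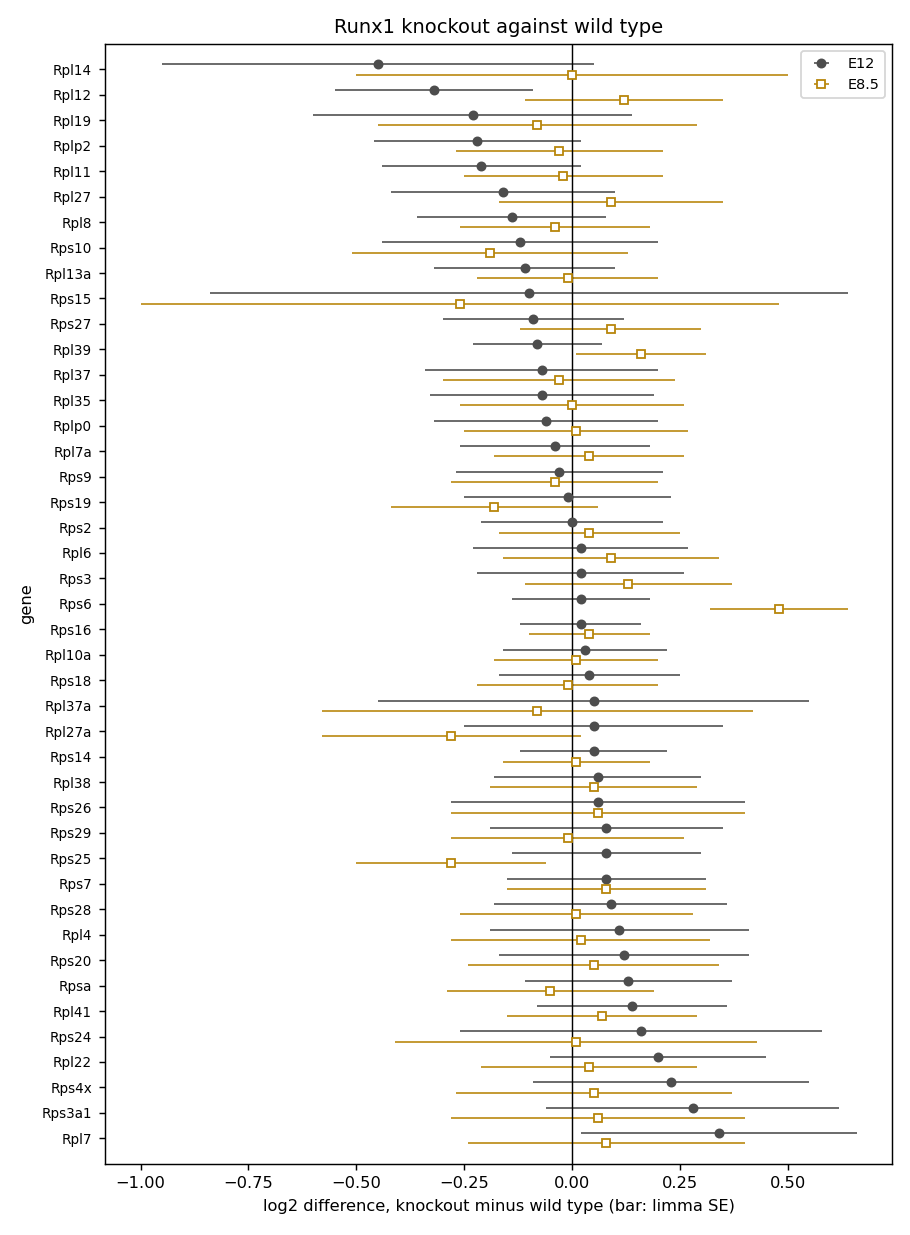
Log2 difference of each of the 43 genes, knockout minus wild type, with limma's SE as bars, grey circles for E12 and gold squares for E8.5, ordered by the E12 value. Values run from -0.45 (Rpl14) to 0.34 (Rpl7) at E12 and from -0.28 (Rps25) to 0.48 (Rps6) at E8.5, and 0 of 43 were called at either stage.

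Replicate arrays of E8.5 differed in the same members in both genotypes, and those of E12 less so. At E8.5 Rps15 read 11.76 and 13.39 in replicates 1 and 2 of the knockout, and 11.81 and 13.85 in those of the wild type. Rpl37a read 12.20 and 13.29 in knockout, against 12.15 and 13.50 in wild type. Rpl14 read 9.80 and 10.81 in knockout, against 9.61 and 10.99 in wild type. Replicate 2 was thus the higher in each pair. Over the 43 genes the replicate differences of knockout and wild type had a Pearson's r of 0.43 at E12, against 0.90 at E8.5, beside 0.17 and 0.37 over all probe sets (across genes, which are not independent replicates). Both E12 arrays numbered 2 lay above both numbered 1 in 32 of 43 members (74.4%), against 21.1% of all genes, and at E8.5 this held for 26 of 43 (60.5%), against 22.5%. The shares of all genes are not matched for brightness. The 99th percentile of the E12 arrays was 10.88 in replicate 2 against 10.72 in replicate 1 in knockout, and 11.09 against 10.51 in wild type. At E8.5 it was 12.30 against 12.24 and 12.29 against 12.28. The part of this upper end was not tested. The actin control, whose 3′ minus 5′ log2 difference grows as RNA is shorter at its 5′ end, split the same E8.5 arrays. For replicates 1 and 2 it was 1.69 and 1.45 in E12 knockout and 1.84 and 1.43 in E12 wild-type arrays, against 1.56 and 2.50 in E8.5 knockout and 1.48 and 2.61 in E8.5 wild-type arrays. The GAPDH control split the E8.5 arrays in the same direction by a smaller amount. It split the E12 arrays likewise, where actin went the other way. It was 2.38 and 2.65 in E12 knockout and 2.20 and 2.57 in E12 wild-type arrays, against 2.16 and 2.65 in E8.5 knockout and 2.25 and 2.56 in E8.5 wild-type arrays, with replicate 2 the higher in each group. The part of these controls in the members' values was not tested. Between arrays of the same number, the family's median stage difference was -1.59 and -1.52 in knockout and -1.71 and -1.37 in wild type for numbers 1 and 2.

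**Figure D5:**
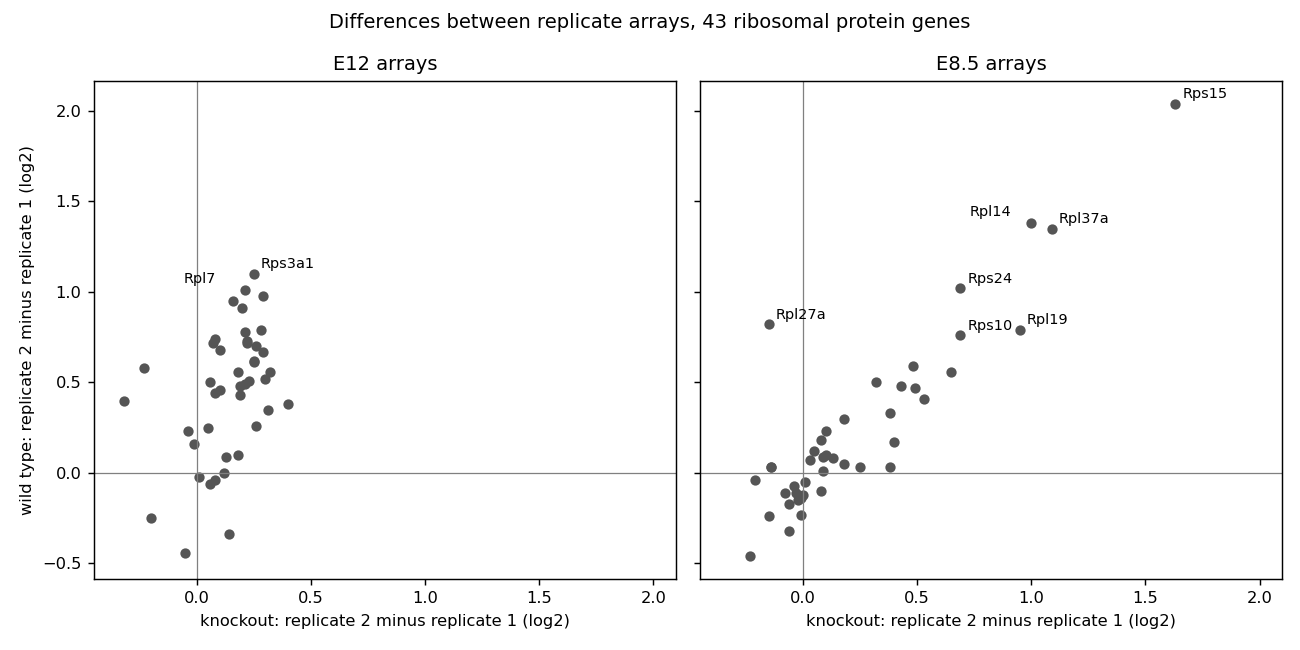
Difference between replicate 2 and replicate 1 (log2) of each of the 43 genes, knockout on the horizontal and wild type on the vertical axis, at E12 (left) and E8.5 (right). At E8.5 Rps15, Rpl37a, Rpl14, Rpl19, Rps24 and Rps10 lie far to the upper right, with Rps15 at 1.63 in knockout and 2.04 in wild type, while at E12 the wild-type differences reach 1.10 (Rps3a1) and the knockout ones 0.40.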

How the data were processed

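Total RNA of 8 embryo samples was amplified over 2 rounds from an oligo-dT T7 primer, labelled and hybridized to single-colour 430 2.0 arrays. The authors processed the probes with Robust Multi-array Analysis, per their methods, and deposited 1 linear intensity per probe set and array. A joint normalization of all 8 arrays is neither stated nor denied, and the version of the software is not stated. The deposited values of the 2 stages do not share 1 distribution. Their 99th percentile was 10.51 to 11.09 at E12 and 12.24 to 12.30 at E8.5. Stage differences on this scale were thus taken between arrays not equalized at their upper end. Depth has no meaning for arrays, and their number (2 per group) limits the precision, so p-values reflect only how far these samples spread.

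Intensities were turned into log2 with no pseudocount, and 64 control probe sets of 45101 were left out. Of 45037 tested, 34945 carried 1 gene symbol of the platform annotation, 932 several and 9160 none. A model with 1 mean per group was fitted to all 8 arrays with limma 3.58.1 (R 4.3.3), p-values were adjusted over all 45037 probe sets (Benjamini-Hochberg), and a gene was called at an adjusted p below 0.05. The fit was tested on simulated data. The members named were the 6 highest and 6 lowest differences per comparison, the 5 brightest and 5 dimmest, and those of the role lists. Gene symbols were updated through a RefSeq table. Members and lists were chosen with earlier results of these data known. Quantile normalization, array shifts, ranks, other probe set choices, limma-trend, a replicate block and leaving out each array were tried as alternatives.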

Additional observations from a re-analysis of the deposited data

Results flagged for a closer look

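Rpl39, the X-linked gene of an exit tunnel protein, had knockout differences of opposite direction at the 2 stages, with no overlap of the arrays at either. At E12 it read 6.78 and 6.90 in knockout, against 6.92 and 6.92 in wild type, a difference of -0.08 (SE 0.15). At E8.5 it read 7.49 and 7.40 in knockout, against 7.34 and 7.23 in wild type, a difference of 0.16 (SE 0.15). The change of the knockout effect between the stages was -0.24 (SE 0.21, limma adjusted p = 1), which does not pass the test. Without overlap, 18.6% of all genes were lower at E12 and 13.5% higher at E8.5. The embryos' sex is not stated. The 4 sex-linked markers measured had knockout differences of -1.89 to 2.62 at E12 and -2.89 to 3.17 at E8.5, and their part was not tested.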

How the results depend on the processing

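The stage calls depended on the scaling and on the arrays kept, and some directions on the scaling. The cause was not tested. Called members, all lower, numbered 36 in knockout and 37 in wild type, where 18.3% and 19.6% of all genes were called lower. Quantile normalization gave 2 (both lower) and 3 (2 lower, 1 higher), with 7 and 13 of 43 above 0, bright members such as Rpl13a (0.13 and 0.21) among them. Ranks gave 2 and 1, all lower. Values relative to the members' median, which sets the family near 0 by construction, gave 6 (5 higher, 1 lower) and 6 (all higher). The 4 arrays of a genotype fitted alone gave 39 in knockout and 5 in wild type, all lower. Probe sets without the suffixes _s, _x and _a, which leaves 22 genes, gave 12 and 12 of these 22, and adding probe sets of several symbols, chosen after seeing the data, gave 68 and 69 of 70. Medians of the log2 difference were -0.17 and -0.13 with quantile normalization, and -1.12 in knockout without those suffixes. Rank medians without them were -1.435 in knockout and -1.425 in wild type for the stage, and -0.085 at E12 and 0.334 at E8.5 for the knockout effect. With the median of all probe sets of a gene the knockout rank median was -0.253. Leaving out 1 array gave 7 to 39 calls in knockout and 27 to 37 in wild type. For the knockout comparisons and the interaction limma called 0 members under each alternative run.

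Several members named for small stage differences changed sign. Values relative to the members' median take out the family's own fall, so a member that fell less turns above 0 by construction. In wild type Rpl37 was at 0.68 (quantile), 0.16 (75th percentile) and 1.67 (relative to the members), Rps27 at 0.20, 0.08 and 1.60, Rpl39 at 0.07 (quantile) and 1.46 (relative), and Rps19 at 0.69 and 0.97. Rps16 was at -0.02 (quantile) and -0.19, and Rps6 at -0.06, with arrays shifted to the same median. In knockout Rpl37 was at 0.54 (quantile), 0.08 (75th percentile) and 1.45 (relative), Rps6 at 0.33 (quantile), 1.32 (relative) and 0.07 (median of its probe sets), Rps16 at 0.26 (75th percentile) and 1.64 (relative), and Rps19 at 0.80 (quantile) and 0.96 (relative). Relative to the members, Rps27 was at 1.23 and Rpl39 at 1.04. With arrays left out, Rps16 ran from -0.07 to 0.06 in knockout and -0.02 to 0.04 in wild type, and Rpl37 from -0.44 to 0.05 and -0.45 to 0.14. Among stage results of single members, 309 kept direction and call, 49 lost the call, 16 gained it and 32 turned. The 32 include the turns by construction relative to the members' median.

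Among knockout results of single members, 390 kept direction and call and 22 turned. At E12 the ranges with 1 array left out were -0.17 to 0.84 (Rpl7), -0.27 to 0.83 (Rps3a1), -0.26 to 0.72 (Rps4x), -0.17 to 0.57 (Rpl22), -0.20 to 0.52 (Rps24), -0.07 to 0.36 (Rpl41), -0.46 to 0.02 (Rplp2) and -0.38 to 0.06 (Rpl27). At E8.5 they were -0.12 to 0.35 (Rpl12), -0.10 to 0.28 (Rps27), -0.69 to 0.13 (Rpl27a), -1.28 to 0.77 (Rps15), -0.57 to 0.19 (Rps10), -0.41 to 0.05 (Rps19) and -0.76 to 0.59 (Rpl37a). Without the suffixes _s, _x and _a, Rpl41 was at -0.05 and Rps10 at 0.04, and relative to the members Rpl37a was at 0.01.

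The samples share only a replicate number, and over all probe sets the replicate differences correlated at 0.17 between genotypes at E12, 0.37 at E8.5 and -0.12 to 0.08 across stages. With the replicate block 37 members were called in knockout and 37 in wild type, and 0 between genotypes. Under the block Rps15 was called in knockout (-2.08, limma adjusted p = 0.0457) and in wild type (-2.23, limma adjusted p = 0.0351), and Rps19 lost its call in wild type (-0.85, limma adjusted p = 0.0621). With the E12 numbers crossed, a choice made after seeing the data, there were 37 and 38. A lone array of a group was assumed to vary like the other groups. Dim probe sets near the bottom of the arrays, such as that of Rps16, limit what a lack of change there can show.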

Other observations

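The like-genes, paralogues of ribosomal protein genes that the rule leaves out, were also mostly lower at E12. Of 6 measured, 4 were called lower in knockout (median -1.49) and 4 in wild type (median -1.48), where 18.3% and 19.6% of all genes were. Rps4l read 8.04 and 8.07 in E12 wild type, against 11.89 and 10.40 in E8.5 wild type (-3.09, limma adjusted p = 0.00511), and was at -2.60 in knockout (limma adjusted p = 0.00902). Rpl7l1 was at -1.91 in knockout (limma adjusted p = 0.00725) and -2.01 in wild type (limma adjusted p = 0.00573). Rpl22l1, which can replace Rpl22 when that gene is lost, was at -1.41 and -1.51, and Rps27l at -1.56 and -1.44, all called. Rpl39l and Rpl3l were dim and not called.

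Targets of p53, which responds when ribosome assembly is disturbed, were called in both directions. Of 21 measured, 3 were called lower and 2 higher in knockout (median -0.03), and 4 lower and 2 higher in wild type (median 0.06), E12 against E8.5. Of all genes, 18.3% were called lower and 13.8% higher in knockout, and 19.6% lower and 14.8% higher in wild type. After quantile normalization 4 of the 21 were called lower and 4 higher in knockout (median 0.20), and 1 lower and 6 higher in wild type (median 0.17). Ccng1 fell by 2.01 in knockout (limma adjusted p = 0.00821) and by 2.12 in wild type (limma adjusted p = 0.00645). Gadd45a rose by 1.18 in knockout (limma adjusted p = 0.0454) and by 1.49 in wild type (limma adjusted p = 0.0202). Cdkn1a was at -0.15 and 0.06, not called. Between knockout and wild type 0 of the 21 were called by limma at either stage, with medians of -0.05 at E12 and -0.01 at E8.5.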
